A study of Capra hircus with 9 samples.

Results

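miR-21 is a small regulatory RNA made from 1 hairpin, which can release a mature miRNA from each of its arms, chi-miR-21-5p and chi-miR-21-3p. Its members were chosen by name: they are the 2 rows of these names among the 1359 known and predicted miRNAs listed for the mammary gland of Laoshan dairy goats. Small RNA libraries of 9 healthy goats of parity 3, with a mean age of 4 years, were compared over 3 stages: late lactation (LL, 240 days after kidding), the dry period (DP, 300 days after kidding) and late gestation (LG, 140 days after mating). Each stage had 3 goats and 1 library of whole mammary tissue per goat, with no treatment or genetic change in any of them. The deposited read counts summed to between 13672653 and 34378995 per library. Other lactation stages, mRNA and cell cultures of the study were not analysed here.

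A miRNA hairpin is cut by Drosha and Dicer into a short duplex, of which 1 strand is usually loaded into Argonaute while the other is degraded. In miR-21 the 5p strand is the loaded one in most mammalian tissues, and the 3p strand is known as the passenger strand. miR-21-5p is known to repress PDCD4, an inhibitor of translation, and is studied for its rise in wound repair, fibrosis, inflammation and breast tumours. In ruminants the dry period is when milk secretion ceases and the gland involutes and is rebuilt before the next lactation.

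In the goat genome ARS1.2 the annotated hairpin gene, MIR21 (chi-mir-21), lies on chromosome 19 from 10430987 to 10431078, a length of 92 bases. It overlapped 0 other annotated genes, so it is intergenic in this annotation. The nearest gene was VMP1, the gene of an autophagy protein, which spans 10301693 to 10429499 and ends 1488 bases from the hairpin. On the other side, a long non-coding RNA gene (LOC108638243, 10433322 to 10446944) begins 2244 bases away. The mature sequences were not analysed here.

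Nearly all reads of miR-21 came from its 5p arm. Over the 9 libraries chi-miR-21-5p had 9507999 reads and chi-miR-21-3p had 518. By read count, chi-miR-21-5p held rank 4, 6 and 3 of all listed miRNAs in the LL libraries (replicates 1, 2 and 3), rank 5, 4 and 1 in DP, and rank 10, 8 and 7 in LG. It was the most abundant miRNA of DP replicate 3. chi-miR-21-3p held ranks between 345 and 582. The counts of neither arm were equal to those of another listed miRNA over all libraries.

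chi-miR-21-5p was lowest in LG, intermediate in LL and highest in DP. Levels are given as CPM, counts relative to a library's total, scaled by TMM, a method that corrects library sizes so that most miRNAs keep the same level between libraries. The level of chi-miR-21-5p was 18795, 26636 and 22498 CPM in the LG libraries (22643 ± 3922, SD, n = 3), and 39819, 30913 and 54317 CPM in LL (41683 ± 11813, SD, n = 3). In DP it was 60425, 74483 and 118914 CPM (84608 ± 30531, SD, n = 3). The 3 stages did not overlap on this scale: the highest LG library lay below the lowest LL library, and the highest LL library lay below the lowest DP library. DP replicate 3 stood well above the other DP libraries.

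chi-miR-21-3p showed no such order. Its level was 1.82, 1.86 and 2.40 CPM in LG (2.03 ± 0.327, SD, n = 3), and 1.49, 2.97 and 4.37 CPM in LL (2.95 ± 1.44, SD, n = 3). In DP it was 1.88, 0.689 and 5.32 CPM (2.63 ± 2.40, SD, n = 3). The lowest and the highest value of all libraries were both DP libraries, so DP overlapped LL and LG in full. These levels rest on 53, 47 and 106 reads in LG, on 19, 45 and 81 reads in LL and on 30, 15 and 122 reads in DP. Over the 9 libraries the log2 levels of the arms had a Pearson r of 0.18 and a Spearman rho of 0.20, given as a description of libraries that share 1 scaling.

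**Figure D1:**
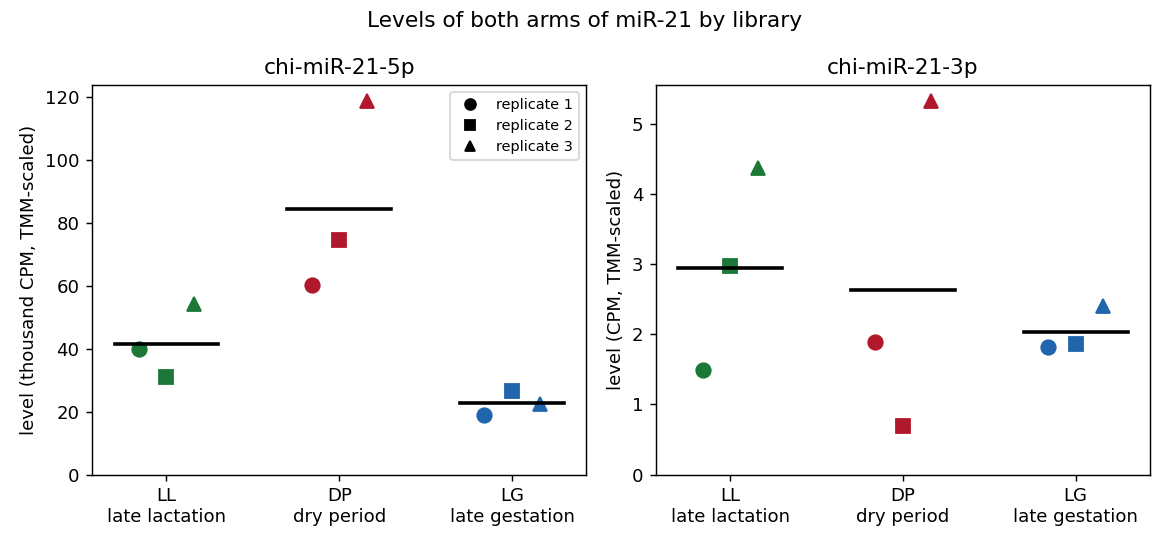
TMM-scaled level of chi-miR-21-5p (left, in units of 1000 CPM) and chi-miR-21-3p (right, CPM) in each library, with 1 point per goat and a black line at the mean of each stage. The 5p libraries of DP sit above those of LL, and those of LL above those of LG, whereas DP holds both the lowest (0.689 CPM) and the highest (5.32 CPM) 3p level.

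DP vs. LG, the contrast of the involuting gland with the gland close to parturition, gave the largest difference of chi-miR-21-5p. Its log2 fold change was 1.90 (SE 0.30, 95% interval 1.23 to 2.57, edgeR adjusted p = 0.000976), a rise of 3.74-fold. It was thus a differentially expressed miRNA (DE-miRNA), defined by an adjusted p under 0.05 with a change of over 1 in either direction on the log2 scale. DE-miRNAs were 31.5% of the 696 miRNAs tested, 21.6% being higher in DP and 9.91% lower. Its rise was the 68th of the 696 in size, and the libraries of both stages did not overlap for 44.7% of all tested miRNAs. chi-miR-21-3p was not a DE-miRNA, with a log2 fold change of 0.38 (SE 0.63, 95% interval -1.01 to 1.77, edgeR adjusted p = 0.684). This interval holds 0 and overlaps that of the 5p arm. The direct comparison of the arms, their ratio, is given below. Without DP replicate 3 the 3p estimate turned to -0.94, and that of the 5p arm was 1.35 and still passed. Scaled by library size without chi-miR-148a-3p, the 5p estimate was 1.01 (edgeR adjusted p = 0.0165), barely past the fold limit.

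DP vs. LL asked what differed between the dry gland and the gland still in milk. The log2 fold change of chi-miR-21-5p was 1.02 (SE 0.30, 95% interval 0.37 to 1.68, edgeR adjusted p = 0.0257), a rise of 2.03-fold. DE-miRNAs were 26.7% of those tested (15.1% higher in DP and 11.6% lower), and the libraries of both stages did not overlap for 41.2%. For chi-miR-21-3p the log2 fold change was -0.17 (SE 0.63, 95% interval -1.56 to 1.23, edgeR adjusted p = 0.866). The 5p estimate lay just past the fold limit, and the call was lost without LL replicate 1 (1.13, adjusted p = 0.0862), without LL replicate 2 (0.89, adjusted p = 0.134) and without DP replicate 3 (0.66, adjusted p = 0.0976) in the same edgeR test. It was also lost with TMM scaling computed without chi-miR-148a-3p (0.93, edgeR adjusted p = 0.0431). Scaled by library size without chi-miR-148a-3p, the 5p estimate was 0.42 (edgeR adjusted p = 0.253).

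LL vs. LG compared the end of one lactation with the weeks before the next. chi-miR-21-5p had a log2 fold change of 0.88 (SE 0.30, 95% interval 0.23 to 1.53, edgeR adjusted p = 0.0676), or 1.84-fold, and did not pass either limit. Scaled by library size alone, its estimate was 0.27 (edgeR adjusted p = 0.523). DE-miRNAs were 12.8% of those tested (8.91% higher in LL and 3.88% lower), and 48.4% had libraries that did not overlap, as chi-miR-21-5p had. For chi-miR-21-3p the log2 fold change was 0.55 (SE 0.63, 95% interval -0.85 to 1.94, edgeR adjusted p = 0.628). The 3 comparisons share their libraries, so their values are not independent of each other.

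The median log2 fold change of all tested miRNAs moved with the scaling, from 0.18 with TMM to -0.66 in DP vs. LG when libraries were scaled by their size alone and without chi-miR-148a-3p. With it moved the split of DE-miRNAs in DP vs. LG, from 150 higher and 69 lower to 46 higher and 193 lower. Relative to that median, the rise of chi-miR-21-5p in DP vs. LG was 1.72 on the log2 scale with TMM and lay between 1.68 and 1.73 under the other 4 scalings. For DP against LL it was 0.90 with TMM and 0.90 to 0.92 under the others, where the median ranged from -0.48 to 0.49. In LL vs. LG it was 0.71 with TMM and 0.69 to 0.71 under the others. A change of scaling shifts nearly all fold changes by the same amount, so this narrow range follows from the way it is computed. Without DP replicate 3 the distance from the median was 1.42 in DP vs. LG and 0.65 against LL.

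The share of chi-miR-21-5p in a library was read with and without chi-miR-148a-3p, a miRNA known for its abundance in milk. chi-miR-148a-3p held 53.6% ± 5.51 of all counts in LL (SD, n = 3), 42.5% ± 2.74 in LG and 9.61% ± 1.07 in DP, with log2 fold changes of -1.93 in DP vs. LG and -2.87 in DP vs. LL (edgeR adjusted p = 0.000159 and 2.49e-05). The counts it holds are part of the total against which every other share is taken.

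Of all counts, chi-miR-21-5p held 2.15%, 3.17% and 2.89% in LG (2.74% ± 0.523, SD, n = 3), and 2.97%, 2.84% and 4.09% in LL (3.30% ± 0.686, SD, n = 3). In DP it held 7.04%, 6.93% and 12.2% (8.71% ± 2.99, SD, n = 3). On this scale DP stood apart and the LL and LG libraries overlapped. Of the counts other than chi-miR-148a-3p, it held 3.81%, 5.72% and 4.77% in LG (4.76% ± 0.953, SD, n = 3), and 7.31%, 5.52% and 8.71% in LL (7.18% ± 1.60, SD, n = 3). In DP it held 7.90%, 7.63% and 13.3% (9.62% ± 3.22, SD, n = 3). Here DP remained above LG without overlap, but LL replicate 3 lay above 2 of the DP libraries and LL replicate 2 lay below LG replicate 2.

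**Figure D2:**
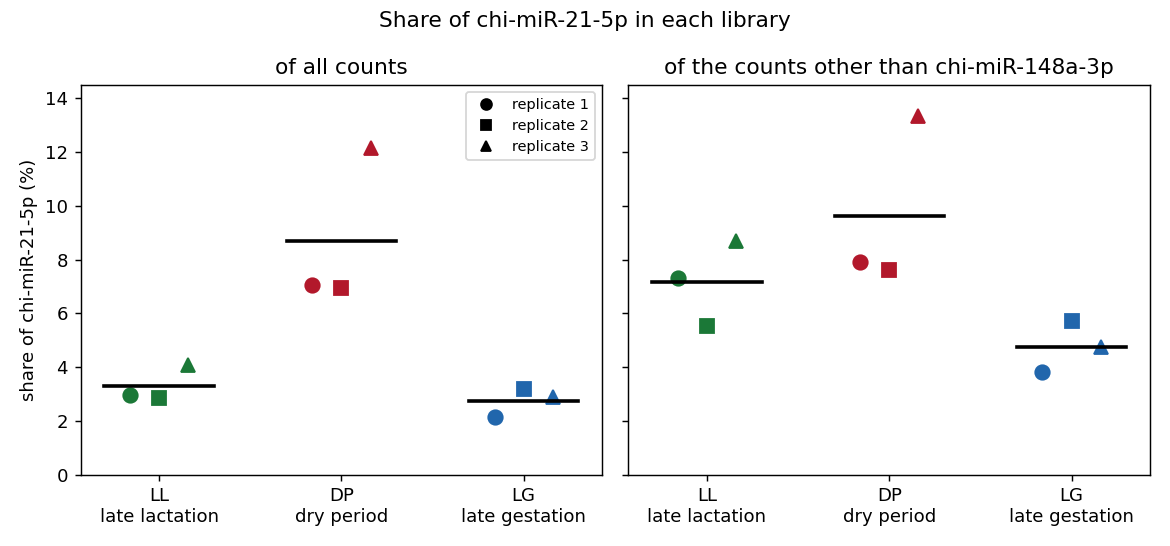
Share of chi-miR-21-5p in each library (%), of all counts (left) and of the counts other than chi-miR-148a-3p (right), with 1 point per goat and a black line at the stage mean. Leaving out chi-miR-148a-3p lifts the LL mean from 3.30% to 7.18% and the LG mean from 2.74% to 4.76%, and the DP mean from 8.71% to 9.62%.

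The log2 share without chi-miR-148a-3p differed across the 3 stages in an exact permutation test of the F statistic (1680 assignments, p = 0.0321, smallest possible p = 0.00357), but not after adjustment over both arms (p = 0.0643). In pairs of stages, DP was 1.98-fold higher than LG (exact permutation p = 0.1, the smallest that 3 against 3 can give), LL was 1.50-fold higher than LG (p = 0.2), and DP was 1.32-fold higher than LL (p = 0.4). All of these had an adjusted p of 0.6 in the exact test over 3 pairs and 2 arms, a design that cannot pass the threshold. With chi-miR-148a-3p in the total, the mean log2 differences were 1.64 for DP vs. LG, 0.27 for LL vs. LG and 1.37 for DP vs. LL, against 0.98, 0.59 and 0.40 without it. Without LG replicate 1 the exact permutation p across stages rose to 0.129. Without LL replicate 1, DP replicate 3, LG replicate 2 or LG replicate 3 it was 0.0714, 0.0929, 0.05 and 0.0714, none of them under 0.05.

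For chi-miR-21-3p the share without chi-miR-148a-3p gave p = 0.421 in the same exact permutation test across stages. It was 1.93-fold lower in DP than in LG (exact permutation p = 0.5) and 2.14-fold lower than in LL (p = 0.4). LL was 1.11-fold higher than LG (exact permutation p = 0.8). Leaving out DP replicate 3, which had the highest 3p share among the DP libraries, brought the p across stages to 0.0429 in the exact permutation test.

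The ratio of the arms within a library does not depend on the scaling of libraries. For each read of chi-miR-21-3p there were 10339, 14353 and 9368 reads of chi-miR-21-5p in LG, 26708, 10399 and 12424 in LL, and 32089, 108053 and 22354 in DP. The mean log2 ratio was 13.43 ± 0.32 in LG, 13.86 ± 0.71 in LL and 15.35 ± 1.17 in DP (SD, n = 3). All DP libraries lay above all LG libraries, but LL replicate 1 lay within the DP range.

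Written as reads of the 3p arm per 1000000 reads of both arms, with exact (Clopper-Pearson) 95% intervals that cover counting error only, LG had 96.7 (72.4 to 126), 69.7 (51.2 to 92.6) and 107 (87.4 to 129). LL had 37.4 (22.5 to 58.5), 96.2 (70.1 to 129) and 80.5 (63.9 to 100.03). DP had 31.2 (21.0 to 44.5), 9.25 (5.18 to 15.3) and 44.7 (37.1 to 53.4). The intervals of DP replicates 1 and 2 do not meet those of any LG library. The interval of DP replicate 3 meets that of LG replicate 2, with limits of 53.4 and 51.2.

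At the pooled LG ratio of 10756 reads of 5p per read of 3p, the 5p counts of the DP libraries would go with 89.5, 151 and 254 reads of chi-miR-21-3p, whereas 30, 15 and 122 were counted. In LL, 47.2, 43.5 and 93.6 reads would go with that ratio, and 19, 45 and 81 were counted. All 3 DP libraries and LL replicates 1 and 3 had fewer 3p reads than that ratio gives, and LL replicate 2 had slightly more.

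**Figure D3:**
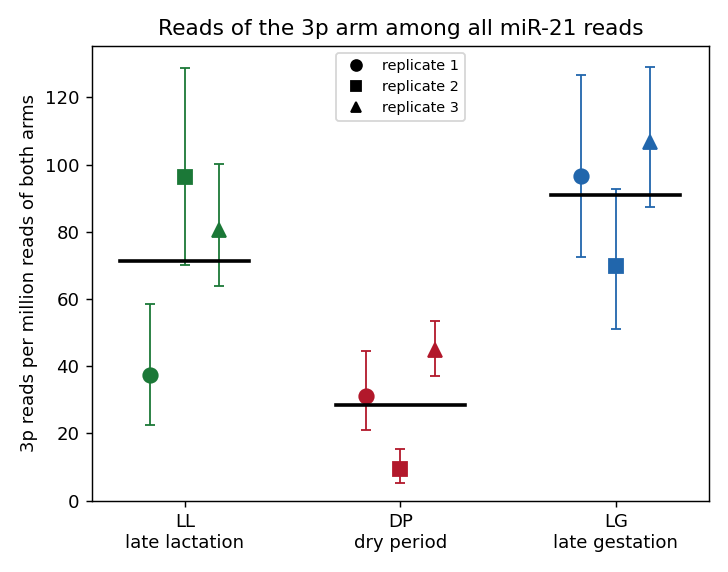
Reads of chi-miR-21-3p per 1000000 reads of both arms of miR-21 in each library, with exact 95% intervals of the counts as bars and the stage mean as a black line. The 3 DP libraries lie between 9.25 and 44.7 and the 3 LG libraries between 69.7 and 107, while the LL libraries range from 37.4 to 96.2.

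The log2 ratio of 5p to 3p rose by 1.92 in DP vs. LG (SE 0.56, 95% interval 0.65 to 3.19), with an adjusted p of 0.0525 in limma over the 129 known hairpins whose both arms were tested, which misses the threshold. In that comparison 12.4% of the hairpins passed, and 41.9% had libraries that did not overlap. In DP vs. LL the difference was 1.49 (SE 0.56, 95% interval 0.23 to 2.76, limma adjusted p = 0.0789), where 19.4% of the hairpins passed. In LL vs. LG it was 0.43 (SE 0.56, 95% interval -0.84 to 1.69, limma adjusted p = 0.871). In LL vs. LG 0% of the hairpins passed in limma, with 18 at an unadjusted p under 0.05, and 0 passed in limma with a pseudocount of 5, at least 10 reads of both arms, an intensity trend or a replicate block. The LL and LG libraries of miR-21 overlapped, while those of 27.1% of the hairpins did not.

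The ratio lay close to the threshold, and settings moved it to either side. With at least 10 reads of both arms required in every library, the limma adjusted p was 0.0213 in DP vs. LG and 0.0441 in DP vs. LL, with the same estimates, and 32 and 37 of the 100 hairpins left passed. In a limma fit of only the stages compared, the adjusted p was 0.0725 in DP vs. LG and 0.140 in DP vs. LL. Without DP replicate 2, the library with the highest ratio, the differences dropped to 1.26 (adjusted p = 0.0719) and 0.83 (adjusted p = 0.157) in limma. Without LG replicate 1 or LG replicate 3 the limma adjusted p in DP vs. LG was 0.124 and 0.125. Without DP replicate 3 the differences were 2.38 (adjusted p = 0.0175) and 1.95 (adjusted p = 0.0298) in limma. An exact permutation test over the stages gave p = 0.0536, and p = 0.1 for DP vs. LG, p = 0.2 for DP vs. LL and p = 0.5 for LL vs. LG.

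Among the 129 hairpins, miR-21 had the third largest excess of 5p reads, with a mean log2 ratio of 14.22 over the 9 libraries against a median of 0.76 for all hairpins. In 73 hairpins the 5p arm was the more abundant one and in 56 the 3p arm. Only chi-let-7g (15.47) and chi-miR-26a (14.47) had a larger ratio, and chi-let-7i (13.46), chi-miR-100 (13.18) and chi-miR-16a (11.15) came next below. The fewest reads of their less abundant arm in a library were 5, 17, 38, 1 and 3 in that order, against 15 for miR-21. The spread of the miR-21 ratio within stages was an SD of 0.81, the 14th largest, where the median hairpin had 0.41.

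The hairpins with ratios closest to that of miR-21 were read in the same contrast. In DP vs. LG the log2 ratio of chi-let-7i rose by 1.57 (limma adjusted p = 0.0242). The estimates of the others were 1.54 for chi-let-7g (adjusted p = 0.0569), 1.17 for chi-miR-26a (adjusted p = 0.109), 2.78 for chi-miR-16a (adjusted p = 0.0502) and -0.22 for chi-miR-100 (adjusted p = 0.815) in limma. The difference for miR-21 was the 7th largest rise of 129 in DP vs. LG and the 9th in DP vs. LL. The more abundant arm gained on the other in 66 of 129 hairpins in DP vs. LG and in 65 in DP vs. LL, and lost in the rest. The median change of the log2 ratio of 5p to 3p over all hairpins was 0.18 in DP vs. LG and 0.33 in DP vs. LL.

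**Figure D4:**
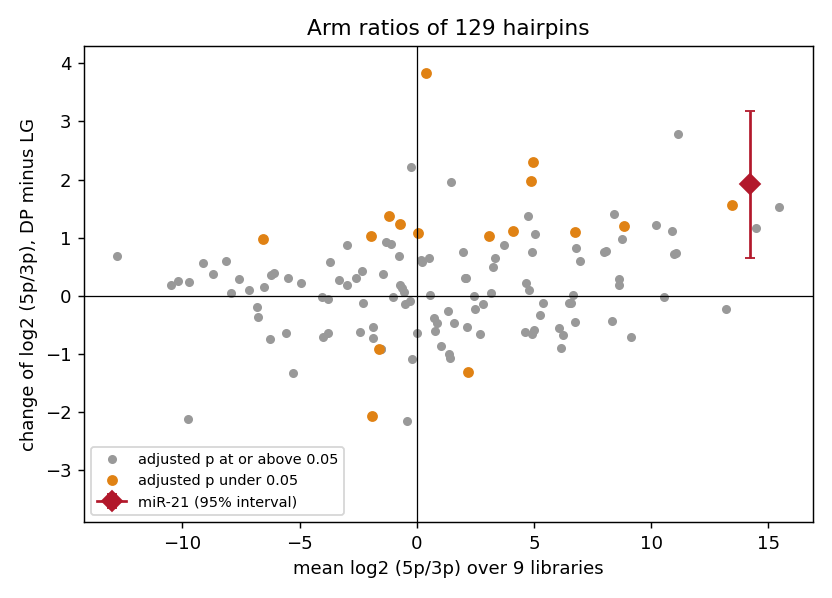
Change of the log2 ratio of 5p to 3p reads in DP vs. LG (vertical axis) against the mean log2 ratio over the 9 libraries (horizontal axis) for 129 known hairpins, 1 point each. miR-21 (diamond, with its 95% interval of 0.65 to 3.19) sits at the far right, at 14.22, with a change of 1.92.

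Other miRNAs known from work on fibrosis, extracellular matrix and involution were listed beside miR-21, the setting in which it is best known. Of the 12 tested, 7 rose and 1 fell in DP vs. LG (median log2 fold change 1.49), where 21.6% of all tested miRNAs rose and 9.91% fell (median 0.18). The rises were those of all 3 members of the miR-29 family, known as repressors of collagen genes, of chi-miR-221-3p and chi-miR-222-3p, known as repressors of the cell cycle inhibitor p27, and of chi-miR-26a-5p and chi-let-7c-5p. The log2 fold change was 2.59 for chi-miR-29b-3p (SE 0.29, edgeR adjusted p = 0.000197) and 1.93 for chi-miR-221-3p (SE 0.22, edgeR adjusted p = 0.000209). chi-miR-30a-5p fell by 3.47 on the log2 scale (SE 0.27, edgeR adjusted p = 2.16e-05). miR-29 is described as falling where collagen accumulates, the opposite of miR-21, and here both rose in DP vs. LG.

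Between DP and LL, 6 of the 12 rose in DP and 1 fell (median 1.34), where 15.1% of all tested miRNAs rose and 11.6% fell (median 0.12). chi-miR-221-3p (1.80) and chi-let-7c-5p (2.01) rose with chi-miR-21-5p, while chi-miR-29a-3p (0.73), chi-miR-29b-3p (0.92) and chi-miR-29c-3p (-0.36) did not pass. Scaled by library size without chi-miR-148a-3p, 4 of the list rose in DP vs. LG and 2 in DP vs. LL, with 1 fall in each. At that scaling 46 of all 695 miRNAs tested rose and 193 fell in DP vs. LG, and 32 rose and 157 fell in DP vs. LL. With library size only, 9 of the list rose and 1 fell between DP and LL, where 165 of 696 rose and 59 fell. In the comparison of LL with LG 3 rose and 2 fell with TMM, where 8.91% of all tested miRNAs rose and 3.88% fell. Under the other 4 scalings 2 or 3 rose and 3 or 4 fell there. At those scalings 30 to 51 of all 695 or 696 tested miRNAs rose and 40 to 90 fell.

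The tissue was whole gland, so markers of its cell types were read beside miR-21, which many of these cells express. In bulk tissue, fewer cells of a type and less RNA per cell cannot be told apart. Of 8 tested miRNAs typical of epithelium, 3 fell and 0 rose in DP vs. LG with TMM, and 5 fell and 1 rose in DP vs. LL. Of all tested miRNAs 9.91% fell in the first comparison and 11.6% in the second with TMM. With library size scaling alone 0 of the list fell and 1 rose in DP vs. LL, where 59 of all 696 tested fell and 165 rose. Under each of the other 4 scalings 5 of the list fell in DP vs. LG. At those scalings the miRNAs that fell there ranged from 85 of 696 tested to 193 of 695. The summed level of the epithelial list was 14060 to 22385 CPM in DP, against 34932 to 38642 CPM in LG and 35325 to 43018 CPM in LL. It was thus lowest in the stage in which chi-miR-21-5p was highest. chi-miR-200a, of the family that holds epithelial identity, fell by 1.68 on the log2 scale in DP vs. LG (SE 0.20, edgeR adjusted p = 0.000226). The miRNAs of the cluster of chi-miR-183, chi-miR-96 and chi-miR-182 had log2 fold changes of 0.89, 0.27 and 0.95 there and did not pass, and chi-miR-183 was the one that rose against LL (1.18).

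Of 5 tested miRNAs typical of fibroblasts and stroma, 3 rose and 0 fell in each of DP vs. LG and DP vs. LL, where 21.6% and 15.1% of all tested miRNAs rose. These were chi-miR-199a-3p, chi-miR-199a-5p and chi-miR-214-3p, whereas chi-miR-143-3p and chi-miR-145-5p, also typical of smooth muscle, had log2 fold changes of 0.14 and 0.40 in DP vs. LG and of -0.43 and -0.71 in DP vs. LL, none of which passed. Their summed level was 47515, 67660 and 152577 CPM in DP, 57432 to 65601 CPM in LG and 77786 to 125722 CPM in LL. Most of that sum was chi-miR-143-3p, with means of 61292 CPM in DP, 55514 CPM in LG and 82771 CPM in LL. DP replicate 3 had the highest sum of all libraries, and the highest level of both arms of miR-21. Without that library 3 of the 5 rose in DP vs. LG, but in DP vs. LL 2 rose and 2 fell. Of the 684 miRNAs tested in that fit, 108 rose and 87 fell in DP vs. LG, and 95 rose and 89 fell in DP vs. LL. Scaled by library size without chi-miR-148a-3p, 2 rose in DP vs. LG (46 of all 695 tested), and 2 rose and 1 fell in DP vs. LL (32 and 157 of all tested).

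Of 5 tested immune cell miRNAs, 4 rose and 0 fell in DP vs. LG, where 21.6% of all tested miRNAs rose. There were 3 rises without DP replicate 3 (108 of all 684 tested), and 1 when libraries were scaled by size without chi-miR-148a-3p (46 of all 695 tested). Between DP and LL 1 rose and 1 fell (15.1% and 11.6% of all tested), and between LL and LG 3 rose in LL and 0 fell (8.91% and 3.88% of all tested). chi-miR-155-5p, a miRNA of activated lymphocytes and macrophages, had log2 fold changes of 2.22 in DP vs. LG (SE 0.32, edgeR adjusted p = 0.000628), 0.81 for DP against LL, which did not pass (edgeR adjusted p = 0.0701), and 1.41 for LL against LG. Other members differed in order: chi-miR-146b-5p was at -0.88 in DP vs. LG and -4.00 in DP vs. LL, and chi-miR-223-3p at -1.06 in DP vs. LL. The summed level of the list was 2185 to 3856 CPM in DP, 1244 to 5551 CPM in LG and 8243 to 31189 CPM in LL. Most of that sum in LL and LG was chi-miR-146b-5p, with means of 21580 CPM in LL and 2483 CPM in LG, against 1347 CPM in DP.

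Of the endothelial miRNAs, chi-miR-126-5p rose in DP vs. LG by 1.08 on the log2 scale (SE 0.25, edgeR adjusted p = 0.0075), a call made with TMM only: 0 of 2 passed in DP vs. LG under the other 4 scalings or without DP replicate 3, and 0 of 2 with TMM in the other comparisons. Their sum ranged over 19028 to 31975 CPM in DP, 14716 to 16363 CPM in LG and 15852 to 22980 CPM in LL. Of 3 red blood cell miRNAs 1 rose in DP vs. LG (21.6% of all tested), with sums of 122 to 1284 CPM in DP, 87.1 to 168 CPM in LG and 364 to 551 CPM in LL. Of 5 muscle miRNAs 2 rose in DP vs. LG and 1 in DP vs. LL (21.6% and 15.1% of all tested), and their sum was 3444 CPM in DP replicate 3 against 419 to 1070 CPM in the other libraries. Scaled by library size without chi-miR-148a-3p, 0 muscle and 0 red blood cell miRNAs rose in DP vs. LG (46 of all 695 tested). Without DP replicate 3, 1 muscle miRNA rose there, and of the red blood cell miRNAs 1 rose and 1 fell. Of the 684 miRNAs tested in that fit, 108 rose and 87 fell in DP vs. LG. None of the markers in these lists was at 0 in all libraries. The part of any of these cell types in the levels of miR-21 was not tested.

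Of the 140 other miRNAs that averaged 100 CPM or more, those whose log2 level was most like that of chi-miR-21-5p over the 9 libraries were chi-miR-10a-5p (Pearson r 0.95), chi-miR-199a-5p (0.95), chi-miR-1 (0.94), chi-miR-29b-3p (0.92) and chi-miR-199b-3p (0.92). Without DP replicate 3 these r values were 0.94, 0.91, 0.97, 0.92 and 0.89. chi-miR-10a-5p, from a HOX gene cluster, averaged 3444 CPM in DP, 1729 CPM in LL and 1078 CPM in LG, the order of chi-miR-21-5p. Its log2 fold change was 1.68 in DP vs. LG (SE 0.22, edgeR adjusted p = 0.000336). chi-miR-199b-3p can share reads with the near-identical chi-miR-199a-3p, so its value as a separate miRNA is uncertain. The libraries share stages and scaling, so these likenesses are a description.

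For chi-miR-21-3p the likenesses were weaker. They were led by both arms of miR-143, a miRNA of smooth muscle and fibroblasts, with r = 0.76 for chi-miR-143-5p and r = 0.75 for chi-miR-143-3p. Next came a predicted miRNA (0.62), chi-miR-101-3p (0.59) and chi-miR-30e-5p (0.54). Without DP replicate 3 the miR-143 arms no longer led, with r of 0.71 and 0.64 against 0.82 for the predicted miRNA, 0.72 for chi-miR-30e-5p and 0.48 for chi-miR-101-3p.

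**Figure D5:**
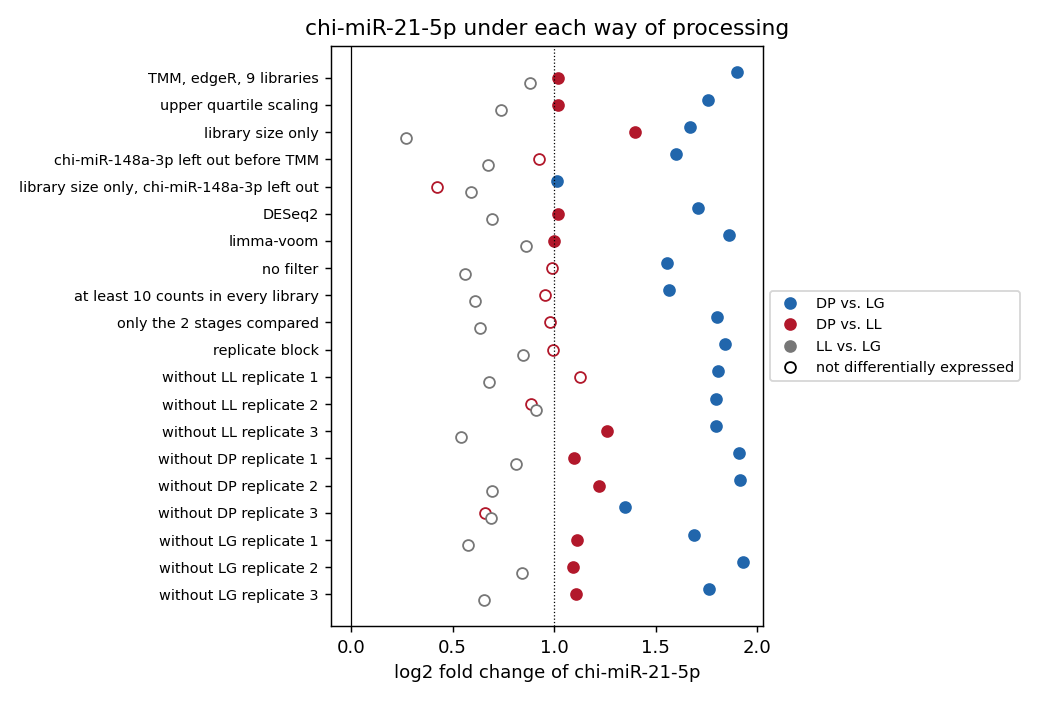
Log2 fold change of chi-miR-21-5p (horizontal axis) in DP vs. LG, DP vs. LL and LL vs. LG under each way of processing the counts (vertical axis), filled where it was a DE-miRNA and open where it was not, with a dotted line at the fold limit. DP vs. LG is filled in every row, from 1.01 to 1.93, DP vs. LL ranges from 0.42 to 1.40 and crosses the limit, and LL vs. LG stays between 0.27 and 0.91.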

How the data were processed

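Mammary tissue of 3 goats per stage (LL, DP and LG) gave 1 small RNA library each. The authors' methods describe trimming with Trimmomatic and mapping to ARS1.2 with miRDeep2. Known and predicted miRNAs were joined, and raw read counts per mature miRNA were deposited. The submitters' processing notes name FastQC 0.11.9, cutadapt 4.2 and Bowtie 1.1.1. Which trimming tool made the deposited counts is not clear. LL replicate 3 was deposited with estimated counts, since 2 predicted miRNAs there were not whole, and was rounded. Reads carry no molecular identifiers, so intervals cover counting error only. A count of 0 allows a level of 3 counts.

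A miRNA was tested if 3 or more libraries reached 0.5 CPM, which left 696. The test was that of edgeR 4.0.16 in R 4.3.3 (TMM, quasi-likelihood, 1 fit of all 9 libraries, stage as the only term, Benjamini-Hochberg). Arm ratios, as log2 of (5p count + 0.5)/(3p count + 0.5), were tested with limma 3.58.1 over 129 known hairpins. Shares and the miR-21 ratio were tested with exact permutation tests. Both scripts were tested on simulated data.

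Both arms of miR-21, the lists and the tests were chosen with earlier results of these data known. The miRNAs named are the arms, chi-miR-148a-3p, the members of the lists, the 5 most similar to each arm at a mean of at least 100 CPM, and up to 3 hairpins on either side of miR-21 in arm ratio. The part of the rule on miRNAs of the same seed was not used here. Of the lists (immune cells, fibroblasts and stroma, epithelium, endothelium, red blood cells, muscle, and fibrosis and involution), 4 of 16 fibrosis and involution, 2 of 7 immune cell and 1 of 9 epithelial names were not matched. Alternatives were other scalings, DESeq2 1.42.0, limma-voom, other filters and pseudocounts, fits of only the stages compared, each library left out in turn, and the replicate number as a block.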

Additional observations from a re-analysis of the deposited data

How the results depend on the processing

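Of 243 alternative values over 18 results, 207 kept direction and side of the threshold or, for shares between pairs of stages, which have no threshold, moved by less than the spread between libraries. Among the latter, the log2 difference of the chi-miR-21-3p share in LL vs. LG (0.15) changed sign with all counts as the total (-0.17) and without LL replicate 3 (-0.14). Of the others, 7 turned direction, 15 no longer passed, 11 passed newly and 3 shares moved by more than the spread. Of the 15, 6 are the chi-miR-21-5p share across stages, taken at its unadjusted p, since adjusted over both arms it did not pass (0.0643). chi-miR-21-5p remained a DE-miRNA in DP vs. LG in all 19 alternatives, and 1.35 to 1.93 was its range with 1 library left out. In DP vs. LL its call was lost with chi-miR-148a-3p left out before TMM (0.93), with library size only and chi-miR-148a-3p left out (0.42, chosen after the data were seen, as were the fits of the lists without DP replicate 3), without a filter (0.99), with a minimum of 10 counts in all libraries (0.95) and with only the 2 stages compared (0.98), and ranged from 0.66 to 1.26 with 1 library left out. Equal replicate numbers do not stand for the same goat, since the 9 libraries came from 9 goats. Of 9 same-numbered pairs of libraries 3 correlated above 0.1 (r -0.10 to 0.21), and differently numbered pairs had r from -0.23 to 0.15. Whether equal numbers mark a shared batch was not tested. With a replicate block, chi-miR-21-5p in DP vs. LL was at 0.99 and no longer past the fold limit, and the arm ratio in DP vs. LG was at 1.92 with a limma adjusted p of 0.0464. The replicate block changed no other call of miR-21.

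The direction of chi-miR-21-3p, never a DE-miRNA, turned in DP vs. LL (0.21) and LL vs. LG (-0.044) with library size only, and in DP vs. LG with library size only and chi-miR-148a-3p left out (-0.48) and limma-voom (-0.061). With 1 library left out it ranged from -0.94 to 0.79 in DP vs. LG and from -1.28 to 0.45 in DP vs. LL, turning without DP replicate 3 in the former and without LL replicate 3 (0.31) or DP replicate 2 (0.45) in the latter.

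The arm ratio passed the threshold in DP vs. LG and DP vs. LL with a pseudocount of 5 (1.82 and 1.46), at least 10 counts of both arms (1.92 and 1.49) and an intensity trend in eBayes (1.92 and 1.49). With 1 library left out it was 1.26 to 2.38 and 0.83 to 1.95, lowest without DP replicate 2, and it passed in DP vs. LG without LL replicate 1 and in both without DP replicate 3. Hairpins called by limma in DP vs. LG went from 16 to 29, 32 and 32 with these 3 settings (the second of 100 hairpins instead of 129) and to 27 with the replicate block, and in DP vs. LL from 25 to 36, 37 and 36, and 19. The exact permutation p of the chi-miR-21-5p share across stages was 0.0536 without the 10 most abundant miRNAs in the total and 0.0321 to 0.129 with 1 library left out. For chi-miR-21-3p it was 0.0429 to 0.882. With all counts as the total, the chi-miR-21-5p share differed by 1.64, 1.37 and 0.27 (log2) in DP vs. LG, DP vs. LL and LL vs. LG. The causes were not tested. The 15 to 122 reads of chi-miR-21-3p per library limit what can be said of that arm.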
